A study of Arabidopsis thaliana with 6 samples.

Results

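The noncoding RNA genes GUT15 (AT2G18440), AT1G15405 and AT4G08035 of Arabidopsis thaliana were followed through an RNA immunoprecipitation of the RNA-binding protein ASI1. They are 3 of the 6351 genes listed in either of the deposited tables and 3 of the 2323 listed in both. They were picked by gene identifier with their levels in these libraries known, so their own levels and fold changes are given as descriptions, with no test. Of the 6 libraries, 2 were ASI1 RIP replicates, beside a single ASI1 input, and 2 were WT RIP replicates, beside a single WT input, which makes 4 groups. All came from whole Col-0 seedlings 14 d old, raised on 1% sucrose medium at 22 °C with 16 h light and 8 h dark, with no treatment named beyond crosslinking in 0.5% formaldehyde. The RIP libraries hold RNA recovered with an anti-Flag antibody, and an input holds the RNA before recovery. The antibody and the names of the groups imply a Flag tag on ASI1 in the ASI1 line and none in WT, which the labels do not state. No source used here gives the promoter of the transgene or the number of lines behind it.

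Long noncoding RNAs act as RNA, without a protein product, and include structural RNAs of ribonucleoprotein particles as well as regulatory transcripts. GUT15 takes its name from a gene with an unstable transcript, a class of plant RNAs that decay soon after they are made. ASI1, with its partners EDM2 and AIPP1, promotes full-length transcripts of genes whose introns contain heterochromatin. Setting its RIP beside the input and beside the WT RIP asks which RNAs came down with it and which came down without it.

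The AT1G15405 RNA has a sequence relative of known function, and both sequences are shown because several of its relatives were counted too. In the TAIR10.1 genome (RefSeq), the source of all sequences here, AT1G15405 is a single exon of 292 bases on chromosome 1 (5297875 to 5298166, minus strand) with a GC content of 58.6% and no open reading frame that opens with ATG. It was 81.4% identical over 290 aligned columns to a stretch within AT7SL-1 (AT4G02970), a gene named for the 7SL RNA of the signal recognition particle, which brings ribosomes that make secreted proteins to the endoplasmic reticulum. The stretch runs on the strand opposite to the annotated AT7SL-1 gene, and 98 of its bases lie in coding sequence. The annotation gives AT1G15405 itself no such name. Bases that differ from the partner, or that face a gap, are in capitals.
AT1G15405, chr1:5297875-5298159, minus strand: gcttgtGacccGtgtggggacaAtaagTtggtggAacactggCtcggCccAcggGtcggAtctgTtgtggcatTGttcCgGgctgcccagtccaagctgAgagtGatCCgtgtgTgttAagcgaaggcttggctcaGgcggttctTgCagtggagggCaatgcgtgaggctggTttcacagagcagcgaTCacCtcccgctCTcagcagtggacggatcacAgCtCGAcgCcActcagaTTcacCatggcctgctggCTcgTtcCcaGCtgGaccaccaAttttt
AT7SL-1 stretch, chr4:1318878-1319166, minus strand: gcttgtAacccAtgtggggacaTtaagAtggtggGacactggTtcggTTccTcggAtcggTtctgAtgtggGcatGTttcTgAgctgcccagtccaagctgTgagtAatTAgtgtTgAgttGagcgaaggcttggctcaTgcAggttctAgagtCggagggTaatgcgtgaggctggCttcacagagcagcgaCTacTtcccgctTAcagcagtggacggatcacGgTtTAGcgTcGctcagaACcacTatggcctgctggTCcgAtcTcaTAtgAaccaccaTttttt

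The region around the start of AT1G15405 is shown because it holds letters known from genes of small RNAs. Plant genes of small nuclear RNAs and of 7SL RNA carry an upstream sequence element (TCCCACATCG, read from the U1.5 snRNA gene) followed by a TATA-like element. The window from 150 bases before to 50 bases after the annotated start held TCCCACATCG at -77, counted with the start as 0, and TATATAA on the other strand at -131 and -42, all in capitals. Both strands were searched, and the matches did not overlap. TCCCACATCG occurred in 84 of the windows of 37897 nuclear genes (0.222%), TATATAA in 15.1% and both in 32 (0.0844%). The letters were read from -77 of U1.5, so their place in that gene was fixed by this choice, and the U1.5 window held no TATATAA. The windows of GUT15 and AT4G08035 held no TCCCACATCG, and GUT15 held 1 TATATAA, 14 bases after its start.
AT1G15405 start region, chr1:5298117-5298316, minus strand: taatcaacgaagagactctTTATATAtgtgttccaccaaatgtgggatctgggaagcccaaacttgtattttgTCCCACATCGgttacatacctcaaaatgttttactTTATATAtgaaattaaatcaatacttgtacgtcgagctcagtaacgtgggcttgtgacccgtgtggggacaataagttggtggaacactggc

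GUT15 and AT4G08035 are longer, spliced and poor in GC. GUT15 lies on chromosome 2 (7994941 to 7997239, minus strand) with annotated transcripts of 4 exons and 1151 bases and of 2 exons and 1378 bases. Their GC content was 41.0% and 36.8%, and the longest reading frame from an ATG to a stop codon had 75 codons. AT4G08035, on the plus strand of chromosome 4 (4866554 to 4868343), has a transcript of 3 exons and 943 bases and an unspliced one of 1698 bases, with 37.3% and 35.5% GC and a longest frame of 57 codons. GUT15 shared a stretch inside its exon 2 with another ncRNA gene, AT4G36648, at 82.0% identity over 172 aligned columns. The pair is shown because both genes were counted, with the differing bases in capitals.
GUT15, chr2:7996503-7996670, minus strand: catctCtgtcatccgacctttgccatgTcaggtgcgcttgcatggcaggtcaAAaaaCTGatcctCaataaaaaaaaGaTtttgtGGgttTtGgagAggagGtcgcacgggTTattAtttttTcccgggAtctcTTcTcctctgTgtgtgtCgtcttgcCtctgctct
AT4G36648, chr4:17282034-17282196, minus strand: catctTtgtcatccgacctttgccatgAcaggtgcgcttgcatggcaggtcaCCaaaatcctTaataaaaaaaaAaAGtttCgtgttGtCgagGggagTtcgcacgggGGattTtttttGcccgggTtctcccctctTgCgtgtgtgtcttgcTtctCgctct

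The last 104 bases of AT4G08035 matched a region partly within the cytochrome P450 pseudogene CYP76C8P at 90.4% identity, and an equal match lay at AT3G61035. They are shown with the bases that differ from CYP76C8P in capitals.
AT4G08035, chr4:4868240-4868343, plus strand: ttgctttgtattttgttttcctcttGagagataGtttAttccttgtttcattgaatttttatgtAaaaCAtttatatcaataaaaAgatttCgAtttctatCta

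In all, BLAST found 2 matches of GUT15, 9 of AT1G15405 and 13 of AT4G08035 elsewhere in the genome, and none between the members themselves (0 pairs). For AT1G15405, 6 of the matches covered at least 280 bases, at 81.1% to 92.8% identity. The closest lay on chromosome 5 (14295040 to 14295330), mostly outside the annotated pseudogene AT5G36275 (14295283 to 14297046), whose exons hold 48 of its bases. The matches of AT4G08035 reached 572 aligned columns, at the pseudogene AT3G42052 with 80.2% identity, and 256 columns, at the proteasome ATPase gene RPT1A with 78.5%. Of the genes matched, AT4G36648, RR3, AT2G31141, BXL3, RPT1A and AT3G42052 had counts in the tables.

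**Figure D1:**
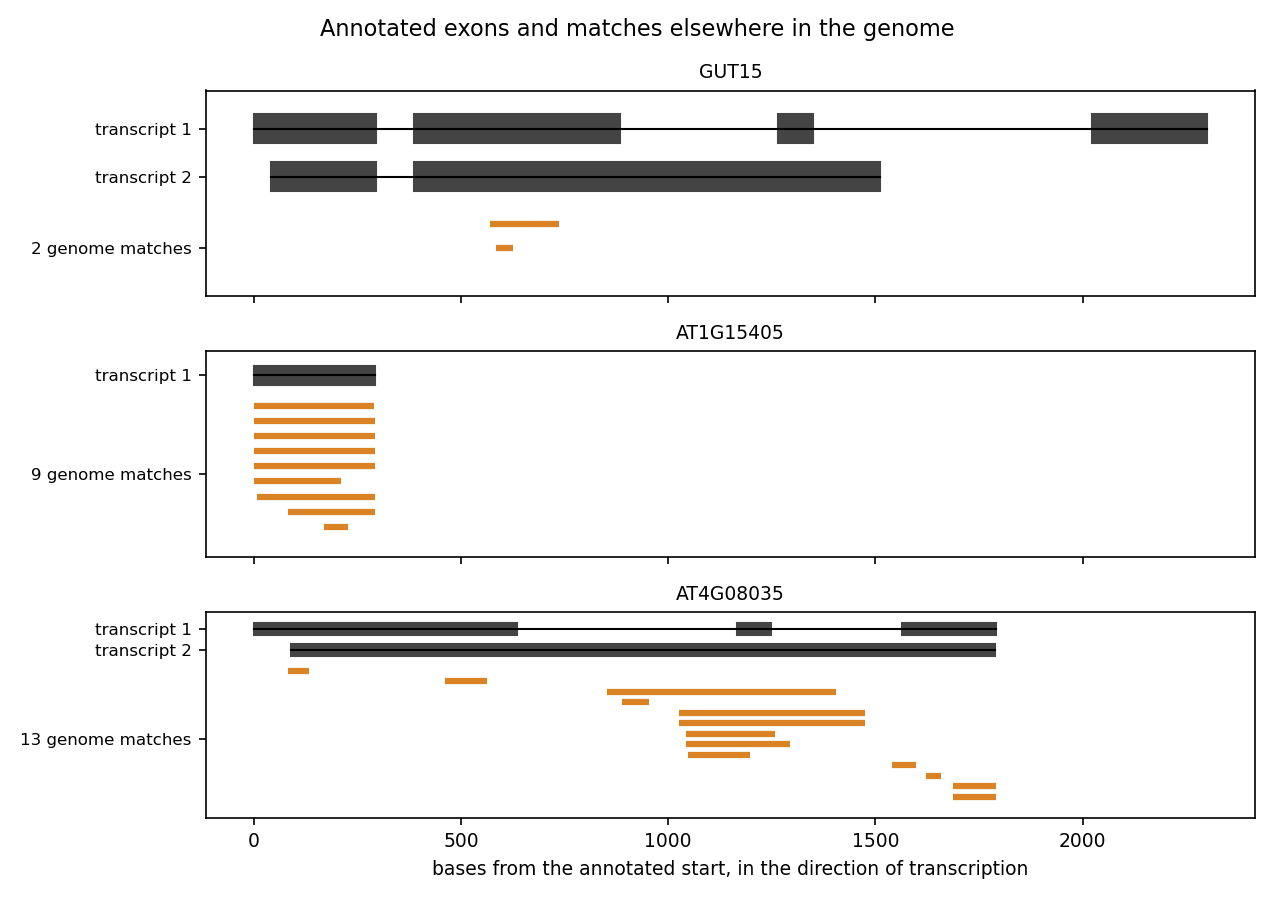
Annotated transcripts (boxes are exons, lines introns) and matches elsewhere in the TAIR10.1 genome (orange) of the 3 genes, against the distance in bases from the annotated start. The matches of AT1G15405 cover the whole gene, whereas GUT15 has matches within 1 exon, and those of AT4G08035 lie mostly past its first exon.

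The depth behind each value differed widely. Outside the 4 ribosomal RNA (rRNA) genes the ASI1 RIP libraries held 448561 and 362058 counts and the ASI1 input 23810.4, against 23304 and 103549 in WT RIP replicates, with 61644 in WT input. Levels are given below as CPM outside rRNA, each count scaled by its library's total outside the rRNA genes. A total of 3 counts, the limit that a count of 0 allows, corresponds to 6.69 and 8.29 CPM in ASI1 RIP replicates 1 and 2 and 126 CPM in ASI1 input, and to 129 and 29.0 CPM in WT RIP replicates 1 and 2 and 48.7 CPM in WT input. Bracketed 95% intervals are exact Poisson intervals and, like these limits, cover counting error only. The transcript of ASI1 itself (AT5G11470) reached 114 and 201 counts in ASI1 RIP replicates, with 2.54 in ASI1 input, and is not in the WT table. Of 10 green tissue marker genes 9 were listed, with a summed level of 7250 to 24700 CPM in the ASI1 libraries and 17321 to 49095 CPM in the WT libraries. Root markers (2 of 3 listed) summed to 0 to 518 CPM in ASI1 and 10.1 to 535 CPM in WT, and of 5 seed storage genes 0 were listed. Whether these differences have a part in the levels below was not tested. In such whole seedlings, fewer cells of a type and less RNA per cell cannot be told apart.

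GUT15 was well covered in both ASI1 RIP libraries and hardly counted elsewhere. It had 294 and 285 counts in ASI1 RIP replicates, with 3.09 in ASI1 input, against 0 and 1.05 in WT RIP replicates, with 4.12 in WT input. As levels these were 655 (583 to 735) and 787 (698 to 884) CPM in ASI1 RIP replicates, with 130 (26.0 to 368) CPM in ASI1 input. In WT they were 0 (up to 129 at the limit of 3 counts) and 10.1 (0.245 to 53.8) CPM in RIP replicates and 66.9 (17.7 to 166) CPM in WT input. Both ASI1 RIP libraries were above all other libraries, and the WT RIP libraries were below the WT input, whose interval overlapped theirs. The mean was 721 ± 93.7 CPM in the ASI1 RIP and 5.07 ± 7.17 CPM in the WT RIP (SD, n = 2 each).

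AT4G08035 followed the same order of groups, with levels slightly above those of GUT15 in the ASI1 RIP and further above them in the inputs. It had 379 and 306 counts in ASI1 RIP replicates, with 8.23 in ASI1 input, against 0 and 5.25 in WT RIP replicates, with 15.5 in WT input. The levels were 846 (762 to 934) and 845 (753 to 945) CPM in ASI1 RIP replicates, with 345.5 (145 to 662) CPM in ASI1 input. In WT they were 0 (up to 129 at the limit of 3 counts) and 50.7 (15.7 to 113) CPM in RIP replicates and 251 (136 to 401) CPM in WT input. The ASI1 RIP libraries lay above the others and hardly differed from each other, and the WT RIP libraries lay below their input. The mean was 845.5 ± 0.603 CPM in the ASI1 RIP and 25.3 ± 35.8 CPM in the WT RIP (SD, n = 2 each).

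AT1G15405 stood far above both in every library and was highest in the inputs. It had 2919 and 1742 counts in ASI1 RIP replicates, with 1200 in ASI1 input, against 182 and 597 in WT RIP replicates, with 1651 in WT input. The levels were 6509 (6274 to 6748) and 4811 (4588 to 5043) CPM in ASI1 RIP replicates, with 50404 (47587 to 53332) CPM in ASI1 input. In WT they were 7805 (6716 to 9031) and 5761 (5312 to 6247) CPM in RIP replicates and 26780 (25506 to 28107) CPM in WT input. The ASI1 and WT RIP libraries overlapped, with means of 5660 ± 1200 CPM in the ASI1 RIP and 6783 ± 1445 CPM in the WT RIP (SD, n = 2 each). This single gene held 5.04% of the ASI1 input counts outside rRNA and 2.68% of those of the WT input.

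**Figure D2:**
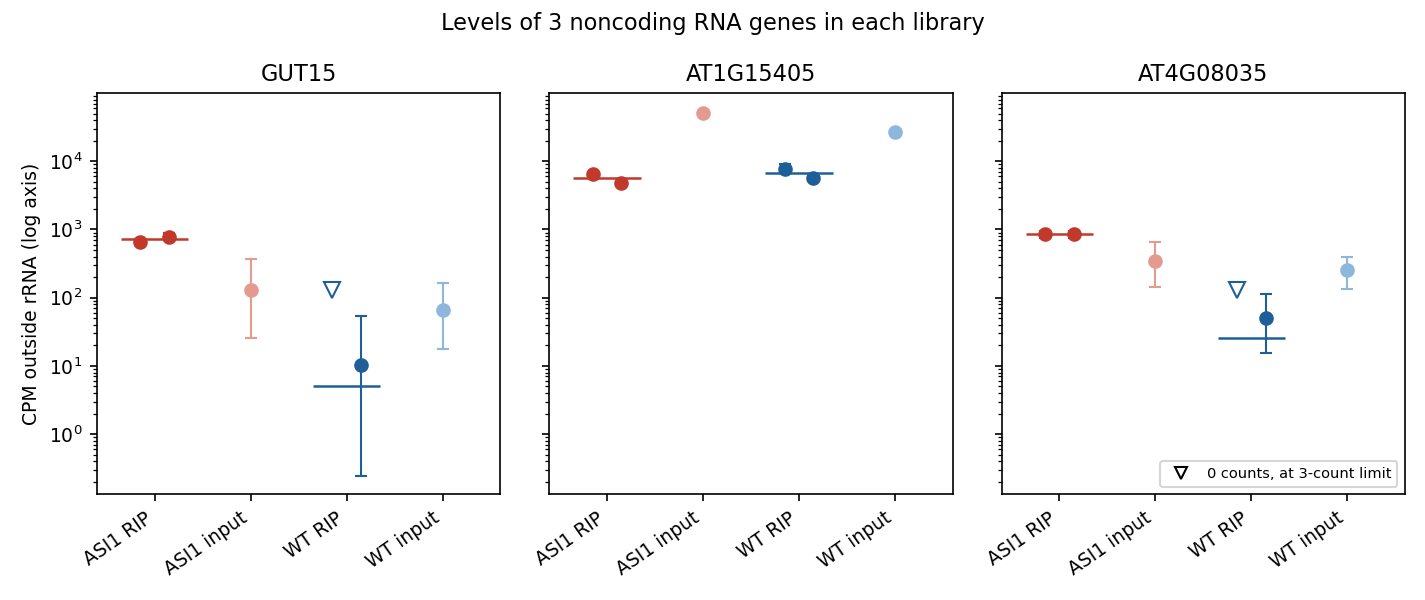
CPM outside rRNA (log axis) of the 3 genes in each library, with exact 95% Poisson intervals; short lines are the means of the 2 RIP libraries, and open triangles mark libraries with 0 counts at the limit of 3 counts. GUT15 and AT4G08035 are highest in the ASI1 RIP (655 to 846 CPM), and AT1G15405 is highest in the inputs (50404 and 26780 CPM).

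AT1G15405 ranked among the 11 highest genes of every library, and GUT15 and AT4G08035 ranked highest in the ASI1 RIP. By CPM outside rRNA, AT1G15405 ranked 3 and 7 in ASI1 RIP replicates, with 2 in ASI1 input among 4016 genes, and 6 and 11 in WT RIP replicates, with 2 in WT input among 4650 genes. GUT15 ranked 267 and 200 in ASI1 RIP replicates, with 1579 in ASI1 input, and 2933, tied with all genes at 0, and 2530 in WT RIP replicates, with 2097 in WT input. The ranks of AT4G08035 were 161 and 169 in ASI1 RIP replicates, with 550 in ASI1 input, against 1188 in WT RIP replicate 2 and 585 in WT input. Per kilobase of exon, which allows genes to be compared, AT1G15405 averaged 19382 CPM per kb in the ASI1 RIP and 23229 in the WT RIP. On the same scale AT4G08035 averaged 472 and GUT15 425 CPM per kb in the ASI1 RIP, and they averaged 14.2 and 2.99 in the WT RIP. In the ASI1 RIP the order of GUT15 (386 and 464 CPM per kb) and AT4G08035 (473 and 472) was within the spread between the GUT15 replicates.

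Relative to the input, GUT15 and AT4G08035 were higher in the ASI1 RIP and lower in the WT RIP. For GUT15 the ratio of RIP to input was 5.05 and 6.08 in ASI1, against 0 and 0.152 in WT. For AT4G08035 it was 2.45 in both ASI1 libraries, against 0 and 0.202 in WT. Both genes were thus above the input in both ASI1 RIP libraries, as were 22.0% of the 2319 genes outside rRNA listed in both tables. All 3 genes were below the input in both WT RIP libraries, as were 59.3% of these genes. Being above the input in the ASI1 RIP and below it in the WT RIP held for both genes and for 12.0% of all.

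The pooled counts show how far these ratios are fixed by counting. For GUT15 the pooled ASI1 RIP level was 5.67 times that of the input (1.93 to 27.6), on 3 input counts, and for AT4G08035 it was 2.52 times (1.27 to 5.85), on 8. In WT the ratio was 0.121 (0.00247 to 1.23) for GUT15, an interval that spans equality, and 0.162 (0.0461 to 0.469) for AT4G08035. The fitted log2 fold of RIP over input was 2.51 (SE 3.78) for GUT15 and 1.33 (SE 3.42) for AT4G08035 in ASI1, and -3.12 (SE 3.67) and -3.03 (SE 3.21) in WT. Each of these values was smaller than its standard error. The authors' deposited table has log2 folds of 2.59 for GUT15 and 1.41 for AT4G08035 in ASI1 and of -1.94 and -1.93 in WT, all with an FDR of 1.

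Set directly against the WT RIP, both genes were higher in both ASI1 RIP libraries. The pooled level of GUT15 in the ASI1 RIP was 90.6 times that in the WT RIP (16.2 to 3585, on 579 counts against 1), and that of AT4G08035 21.4 times (9.14 to 66.2, on 685 against 5). These intervals cover counting error only and leave out the spread between replicates. At the mean ASI1 RIP level, WT RIP replicates 1 and 2 would have held 16.8 and 74.7 counts of GUT15 where 0 and 1.05 were measured, and 19.7 and 87.6 of AT4G08035 where 0 and 5.25 were measured. The measured counts were below these in both WT RIP replicates. The inputs differed less, with an ASI1 to WT ratio of 1.94 (0.284 to 11.5) for GUT15 and 1.38 (0.507 to 3.47) for AT4G08035, and both intervals include equality. On CPM of all listed counts, rRNA included, these ratios were 1.07 for GUT15 and 0.762 for AT4G08035.

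Other genes of these libraries showed the same order. Both ASI1 RIP libraries were above both WT RIP libraries for GUT15 and AT4G08035, and for 604 of the 2319 genes (26.0%), while 4.74% were below in both. The fitted log2 fold of ASI1 RIP over WT RIP was 6.58 (SE 3.59) for GUT15 and 4.82 (SE 3.10) for AT4G08035, beside a median of 1.89 over the 2233 genes tested. In the edgeR quasi-likelihood fit 0 genes were called in either direction, with 29 at an unadjusted p under 0.05, whereas DESeq2 put 2 genes higher and 15 lower, with 144 at an unadjusted p under 0.05. A call needed a Benjamini-Hochberg adjusted p under 0.05 and a log2 fold of at least 1 in size.

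**Figure D3:**
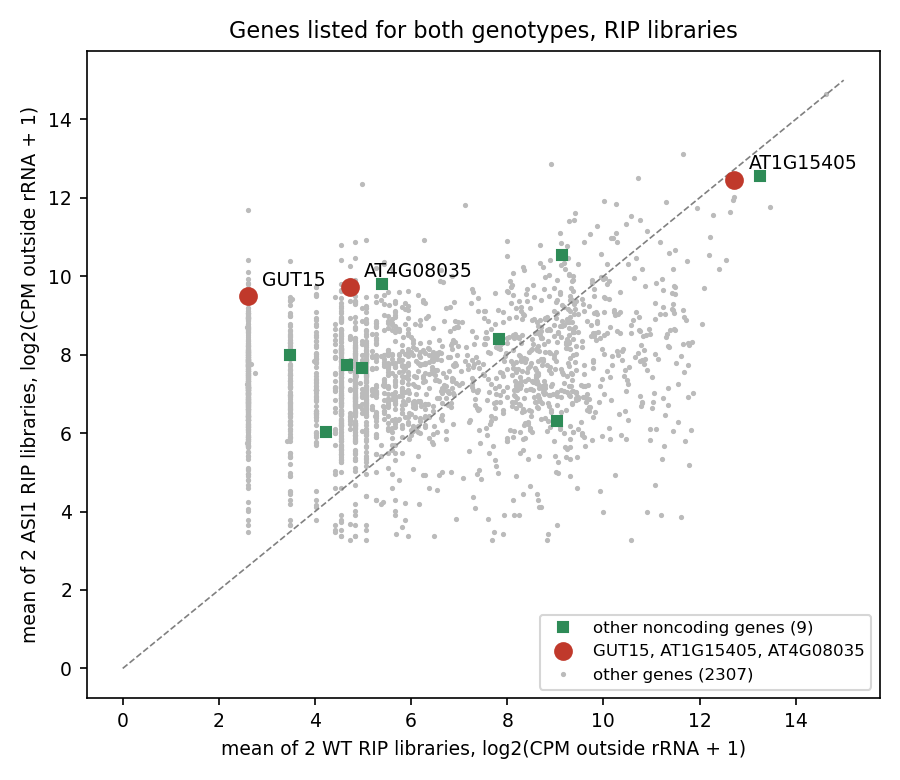
Mean level of each of 2319 genes outside rRNA in the 2 ASI1 RIP libraries against that in the 2 WT RIP libraries, as log2(CPM outside rRNA + 1), with the diagonal dashed. GUT15 and AT4G08035 lie above the diagonal within a broad cloud of other genes low in the WT RIP, and AT1G15405 lies near the diagonal at the high end.

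For AT1G15405 the comparison with the input depended on the scale. Outside rRNA, the ratio of RIP to input was 0.129 and 0.0954 in ASI1, against 0.291 and 0.215 in WT. It was thus below its input in both ASI1 RIP libraries, as were 31.3% of all genes, and in both RIP libraries of either genotype, as were 18.7%. On CPM of all listed counts, rRNA included, the gene had 1138 and 965 CPM in ASI1 RIP replicates, with 269 in ASI1 input, against 1517 and 1136 in WT RIP replicates, with 259 in WT input. On that scale the ratio was 4.23 and 3.59 in ASI1, against 5.87 and 4.39 in WT, so that the RIP lay above the input. The rRNA genes held 82.5% and 79.9% of the counts in ASI1 RIP replicates, with 99.5% in ASI1 input, and 80.6% and 80.3% in WT RIP replicates, with 99.03% in WT input. For GUT15 and AT4G08035 the ASI1 RIP was above the input on both scales, and so was WT RIP replicate 2 on the scale with rRNA (ratios 3.10 and 4.13).

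The AT1G15405 RIP levels of the genotypes overlapped on either scale. The pooled ASI1 RIP level was 0.938 times that of the WT RIP (0.869 to 1.01). The fitted log2 fold was -0.26 (SE 0.535) for ASI1 RIP over WT RIP, -3.15 (SE 0.637) for ASI1 RIP over its input and -1.98 (SE 0.630) for WT RIP over its input. The authors' deposited table has -3.04 and -1.34 for the comparisons with the ASI1 and WT inputs. The ASI1 input was 1.88 times (1.75 to 2.03) the WT input outside rRNA and 1.04 times it on CPM of all listed counts. With 1 input per genotype this ratio has no replicate check.

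The gene most like AT1G15405 across the libraries holds a copy of part of its sequence. RR3 (AT2G41310), a response regulator of cytokinin signalling on chromosome 2 (17221840 to 17224880), had 4228 and 3720 CPM in ASI1 RIP replicates, with 54210 in ASI1 input, against 6956 and 6416 CPM in WT RIP replicates, with 33776 in WT input. Its levels were thus 0.650 to 1.26 times those of AT1G15405 in every library. Bases 1 to 210 of AT1G15405 aligned to the last exon of RR3, past its coding part, at 74.0% identity over 219 columns with a longest identical run of 27 bases. The lncRNA gene AT2G09250 (17224503 to 17224801), on the strand opposite to RR3 and without counts in either table, covers this stretch. Where the authors' counting did not use strand, reads from AT2G09250 and RR3 cannot be told apart, and whether reads of AT1G15405 and its copies were split between them was not tested.

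Other copies were counted as well. AT2G31141, whose exons hold 289 of the 295 bases aligned to AT1G15405 at 81.8% identity, had 862 and 911.5 CPM in ASI1 RIP replicates, with 5874 in ASI1 input, against 0 and 2170 CPM in WT RIP replicates, with 2958 in WT input. BXL3, a beta-xylosidase gene with a copy on its opposite strand, had 0 and 291 CPM in ASI1 RIP replicates, with 1339 in ASI1 input, against 446 and 1115 CPM in WT RIP replicates, with 0 in WT input. Together AT1G15405, RR3 and AT2G31141 took 1.16% and 0.944% of the counts outside rRNA in ASI1 RIP replicates, with 11.05% in ASI1 input, against 1.48% and 1.43% in WT RIP replicates, with 6.35% in WT input. All 3 were lower in every RIP library than in its input outside rRNA, with the smallest gap for AT2G31141 in WT RIP replicate 2, at 0.733 of the input.

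RR3 also passed the test in ASI1 RIP over input. In edgeR's quasi-likelihood fit its log2 fold was -3.77 (SE 0.620, adjusted p = 2.95e-06), lower in both of 2 RIP libraries outside rRNA, and 2 of 2233 genes (0.0896%) were called lower. The other was AT1G15405, for which this is no test, since it was picked with its levels known, and it was not called without either ASI1 RIP replicate. Called higher was 1 gene (0.0448%) in the ASI1 RIP and 1 (0.0448%) in the WT RIP, in both the leucine-rich repeat extensin gene AT2G15880 and no member. The call of RR3 was lost when the library sizes were scaled by TMM (-2.81, adjusted p = 0.365 in edgeR), when the rRNA genes were kept (-2.71, adjusted p = 0.9999), without the abundance trend (adjusted p = 0.9997) and without WT RIP replicate 2 (adjusted p = 0.583). DESeq2 did not call it either (-3.50, adjusted p = 0.9999), and its other alternatives kept it (adjusted p = 0.000623 to 0.0152 in edgeR). In the WT RIP its log2 fold over the input was -2.34 (SE 0.606, adjusted p = 0.129 in edgeR), and the difference between the genotypes was -1.43 (SE 0.896, adjusted p = 0.9998 in edgeR). AT2G31141 did not pass the test in the ASI1 RIP (-2.73, SE 1.91, adjusted p = 0.9997 in edgeR).

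**Figure D4:**
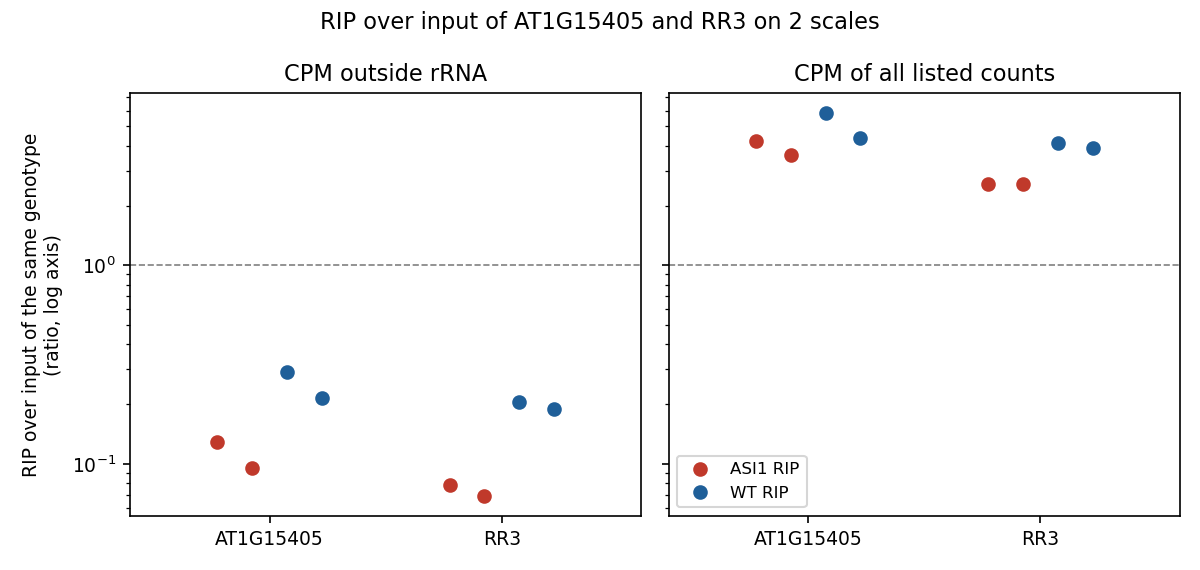
Ratio of RIP to input (log axis) for AT1G15405 and RR3 in each RIP library, on CPM outside rRNA (left) and on CPM of all listed counts with rRNA (right); the dashed line marks equality. Every ratio is below 1 outside rRNA (0.0686 to 0.291) and above 1 with rRNA counted (2.55 to 5.87), and the ASI1 ratios lie below the WT ratios.

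The listed relatives of the other genes had low or uneven counts. AT4G36648, the relative of GUT15, had 30.3 and 479 CPM in ASI1 RIP replicates, with 389 in ASI1 input, against 0 and 20.3 CPM in WT RIP replicates, with 184 in WT input. Its ASI1 RIP replicates differed far more than those of GUT15. RPT1A had 153 and 3.13 counts in ASI1 RIP replicates, with 2.06 in ASI1 input, against 2.08 and 1.05 in WT RIP replicates, with 6.18 in WT input. AT3G42052, in the ASI1 table alone, had 75.3 and 26.1 counts in ASI1 RIP replicates, with 1.03 in ASI1 input.

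The genes around the members gave few counts. GUT15 spans the annotated pseudogene AT2G10045, which lies in an intron on the same strand, and has SDH1-2, a succinate dehydrogenase gene, 104 bp away; neither was listed. AT1G15405 lies inside the longer lncRNA gene AT1G05163 on the same strand (5297847 to 5298571), also not listed. The neighbour AT1G15400, 799 bp from AT1G15405, had 201 and 17.8 counts in ASI1 RIP replicates, with 8.23 in ASI1 input, against 1.04 and 1.05 in WT RIP replicates, with 7.21 in WT input. The nearest genes to AT4G08035 are pseudogenes 2437 and 8420 bp away.

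Across the 6 libraries GUT15 and AT4G08035 varied together, and AT1G15405 varied apart from them. Pearson's r on log2(CPM outside rRNA + 1) was 0.97 between GUT15 and AT4G08035, 0.03 between GUT15 and AT1G15405 and 0.15 between AT4G08035 and AT1G15405. Among 719 genes above 0 in all 6 libraries, the nearest to GUT15 was NIA2, a nitrate reductase gene (r = 0.97), followed by AVP1, a vacuolar proton pump gene (r = 0.95), and AT3G46600 (r = 0.94). NIA2 was also nearest to AT4G08035 (r = 0.98), followed by the ubiquitin ligase gene UPL1 and AT4G28080 (r = 0.95 each). NIA2 had 3451 and 4257 CPM in ASI1 RIP replicates, with 2721 in ASI1 input, against 669 and 1409 CPM in WT RIP replicates, with 3109 in WT input. For AT1G15405 the nearest were RR3 (r = 0.98), the cullin gene CUL1 (r = 0.94) and PYK10, a beta-glucosidase gene of the endoplasmic reticulum (r = 0.94). The 6 points are 4 groups with shared depths, so these values describe the libraries.

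Few other noncoding RNA genes were counted. The classes searched were lncRNA, ncRNA, antisense RNA, misc RNA, snRNA, snoRNA and other, with 4673 annotated genes, members included. Apart from the members, 35 were listed: 17 in the ASI1 table alone, 9 in the WT table alone and 9 in both. Of the 17 in the ASI1 table alone, 7 reached 20 counts in each ASI1 RIP replicate. Of the 9 in both, 5 were higher in both ASI1 RIP libraries than in both WT RIP libraries and 1, U1.5, was lower. Among all 2319 genes outside rRNA listed in both tables, 26.0% were higher and 4.74% lower by this rule. None of the 9 was called by edgeR in the ASI1 RIP, the WT RIP or the direct comparison (0 genes each), in which 6, 16 and 29 of all genes had an unadjusted p under 0.05; DESeq2 called 2, 0 and 17 of all genes. Their median log2 folds were 0.76, -0.47 and 1.45, beside 0.10, -1.39 and 1.89 over all genes. Of 13 identifiers looked up for regulatory noncoding RNA genes, 8 carried the sought name in the annotation, among them the trans-acting siRNA genes TAS1A to TAS3 and the phosphate starvation gene IPS1, and 0 of the 13 were listed.

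The 4 other noncoding genes with at least 20 counts in at least 3 libraries did not share 1 pattern. U1.5, which encodes the U1 snRNA that pairs with the start of introns, had 5736 and 6314 CPM in ASI1 RIP replicates, with 1080 in ASI1 input, against 12724 and 6918 CPM in WT RIP replicates, with 451 in WT input. U3D, a snoRNA of ribosomal RNA processing, had 86.2 and 314 CPM in ASI1 RIP replicates, with 1018 in ASI1 input, against 0 and 60.8 CPM in WT RIP replicates, with 275 in WT input. Outside rRNA, U1.5 was thus above and U3D below the input in every RIP library. AT4G13495 had 1883 and 1090 CPM in ASI1 RIP replicates, with 345.5 in ASI1 input, against 44.6 and 1075 CPM in WT RIP replicates, with 150 in WT input. AT2G23672 had 401 and 273 CPM in ASI1 RIP replicates, with 288 in ASI1 input, against 44.6 and 405.5 CPM in WT RIP replicates, with 0 in WT input.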

How the data were processed

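For each genotype the authors deposited 1 table of expected counts by gene (estimates that need not be whole) of 1 input and 2 RIP libraries, with CPM of the listed total, per the file headers. The deposited tables also hold the authors' log2 fold of RIP over input, mean log2 CPM, p-value and FDR. STAR 2.6.0c, Salmon 0.10.2 and edgeR are named, per the submitters' processing notes; no source used here gives the build, the role of each tool or the use of strand. A table lists a gene only where at least 2 of its 3 libraries are above 0.

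The 4 rRNA genes were left out and levels expressed as CPM outside rRNA. Expected counts were multiples of 1.03 to 1.05 in 94.8% to 98.2% of values (tolerance 0.02). Exact Poisson intervals were computed on the rounded expected counts, not divided by this step. Ratios of pooled counts have exact binomial intervals, which cover counting error only and leave out the spread between replicates. Expected counts were rounded and fitted with edgeR 4.0.16 (glmQLFit, glmQLFTest, R 4.3.3) over all 6 libraries and the genes listed in both tables, with counts outside rRNA as library sizes and filterByExpr, which left 2233 genes. With single inputs the fit had 2 residual degrees of freedom and a biological coefficient of variation of 1.47. The SE of an edgeR log2 fold was worked back from its test, as the size of the fold divided by the square root of the F statistic. DESeq2 1.42.0 was an alternative, as were TMM scaling, no filter, no abundance trend, each RIP replicate left out, and the RIP libraries alone. A further alternative kept the rRNA genes, with listed totals as library sizes and TMM scaling. The fit was run on simulated counts with a far lower dispersion than the 2.17 fitted to these libraries. That run cannot show how the fit performs at the spread found here. The members and lists were chosen with earlier results of these data known. All identifiers (100%) matched the TAIR10.1 annotation (RefSeq), the source of names, coordinates and sequences. Matches came from BLAST+ 2.17.0 (word size 11, E limit 1e-05). Named genes were the members, their listed sequence relatives and neighbours, the 3 genes most correlated with each, the called genes and the noncoding genes with at least 20 counts in at least 3 libraries. The p-values measure the spread between the 2 RIP replicates of each genotype. The labels do not say whether replicates come from separate cultures, so this spread may be technical. The single inputs add nothing to it, so each comparison with an input rests on 1 input library whose spread was not measured.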

Additional observations from a re-analysis of the deposited data

Results flagged for a closer look

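Outside rRNA, GUT15 and AT4G08035 were above the input in both ASI1 RIP libraries and below it in both WT RIP libraries. On CPM of all listed counts, WT RIP replicate 2 was above its input for both (ratios 3.10 and 4.13), and the pooled WT ratio of GUT15 outside rRNA spanned equality (0.121, 95% interval 0.00247 to 1.23). The log2 difference of the enrichments, ASI1 minus WT, was 5.63 (SE 5.34) for GUT15 and 4.36 (SE 4.84) for AT4G08035, beside a median of 1.28 over all genes. These differences were not tested, since the genes were picked with these values known.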

How the results depend on the processing

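The fitted log2 folds of the members kept their sign in every alternative fit, while their size moved with the libraries. The fit with rRNA kept was also scaled by TMM. No fit used the listed totals unscaled, so the kept signs do not cover that scale. The simple ratios turned on CPM of all listed counts: AT1G15405 was above the input in all 4 RIP libraries (3.59 to 5.87), GUT15 and AT4G08035 were above it in WT RIP replicate 2 (3.10 and 4.13), and the ASI1 to WT input ratio of AT4G08035 was 0.762 in place of 1.38. ASI1 RIP over WT RIP ranged over 5.22 to 10.05 for GUT15, 3.67 to 10.28 for AT4G08035 and -1.40 to -0.03 for AT1G15405; the highest values of GUT15 and AT4G08035 came without WT RIP replicate 2, which left a WT library with 0 counts of both. Scaling moved the median of all genes: TMM gave medians of 1.06 for ASI1 RIP over input, -0.10 for WT RIP over input and 1.28 for ASI1 RIP over WT RIP, in place of 0.10, -1.39 and 1.89.

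Called genes in ASI1 RIP over input numbered 3, and 1 with TMM, 1 with rRNA kept, 0 without the abundance trend and 0 to 2 with a RIP replicate left out. In WT RIP over input the 1 called gene became 0 with DESeq2, without the filter, without the abundance trend, and with any RIP replicate left out (0 to 0). With rRNA kept, the 1 gene called in either genotype was the 18S rRNA gene AT3G41768, lower, and AT2G15880 was not called. For ASI1 RIP over WT RIP DESeq2 called 17 where edgeR called 0. The ASI1 to WT input ratio of AT1G15405 was 1.04 on all listed counts and 1.65 on genes of both tables, in place of 1.88. The causes were not tested. Over the RIP libraries alone a replicate block gave 0 calls and 4 genes at an unadjusted p under 0.05, against 69 without it; the replicate numbers did not pair the libraries (r = 0.00497 over 2233 genes). Counts of 3 to 15 in the inputs and 0 to 5 in the WT RIP limit what GUT15 and AT4G08035 can show.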
